A study of Homo sapiens with 4 samples.

Results

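Imatinib-resistant K562 cells were compared with their parental line across the genes of a deposited RNA-seq table. K562 is an established chronic myeloid leukaemia line driven by the fusion kinase BCR-ABL, which imatinib inhibits. The groups used are resistant cells (cell line K562/IMR, genotype IM-resistant, treatment NC), K562 cells given R-Exo for 48 h, K562 cells given S-Exo for 48 h, and parental K562 cells (genotype WT, treatment NC). R-Exo and S-Exo are exosomes, small vesicles released by cells, and the series description sets R-Exo against S-Exo as its control. All 4 libraries came from cells grown in the same serum-containing medium, per the labels' protocols. How the resistant line was selected, whether it is 1 clone and whether imatinib was present at harvest are stated in none of the labels. Each group had 1 library, so every difference is a size with no replicate check and no test.

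A gene was compared if it had an Ensembl identifier and at least 1 FPKM (fragments per kilobase of gene model, scaled to sequencing depth) in one or both of the resistant and parental libraries. This gave 1509 genes out of 3200 rows. The other rows were 779 genes with an Ensembl identifier below that level and 912 rows with a running number in place of a gene name. The difference is log2 of (FPKM + 1) in resistant minus the same in parental, a scale that understates the difference of genes at low level. A gene is called higher or lower at a log2 difference of 1 or more either way, a 2-fold difference on that scale. Of the 1509 genes, 420 (27.8%) were higher and 311 (20.6%) were lower in resistant cells, and 778 lay between. The shares of any gene group below are read against those 2 percentages.

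The table holds genes that its authors had selected as differentially expressed, so these shares describe selected genes and not the transcriptome. It shows in the values: 193 of the 1509 genes had a difference under 0.5 either way, while 685 lay at or above that and 631 at or below it on the negative side. The limit of 1 cuts through a dense part of the range. Past it by less than 0.05 were 65 genes, and short of it by 0.05 or less were 63. A stricter limit of 2 held 89 higher and 55 lower genes, and a limit of 3 held 23 and 13. The median difference was 0.15, and when it was set to 0 (re-scaled, below) the counts became 305 higher and 423 lower, so that the higher share of the called genes was 41.9% in place of 57.5%. It was 47.4% after quantile normalization of both columns. The depth of the libraries is unknown, since the table gives no counts, and a value of 0 is described as listed at 0.

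The R-Exo library, labelled as K562 cells, lay close to the resistant library: the median size of the difference between them over the 1509 genes was 0.18, with 14 genes past the limit in one direction and 18 in the other. The S-Exo library lay as close to parental, with a median size of 0.12 and 13 and 15 genes past the limit. Between resistant and parental the median size was 0.98. R-Exo against S-Exo, a pair that shares no library with resistant against parental, had a median size of 0.94 on the same genes, with 321 higher and 338 lower. Of the 420 higher genes, 407 had both the resistant and the R-Exo value above the S-Exo and the parental value, and 306 of the 311 lower genes had both below. Where R-Exo and S-Exo values are given below, they are those of libraries that resemble the 2 compared ones. An effect of the vesicles, carry-over of material from resistant cells and an exchange of samples cannot be told apart for the R-Exo library, and this holds for each R-Exo value below.

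Imatinib resistance can arise through BCR-ABL itself or around it. P-glycoprotein, the product of ABCB1, is a pump that exports many drugs from the cell. Other routes known in this leukaemia pass through kinases and survival pathways that act beside BCR-ABL, through adhesion and through changes of cell state. K562 cells have features of both the erythroid and the megakaryocytic lineage, the 2 branches of blood formation that make red cells and platelets, and can be driven towards either. Protein kinase C activity is a classical stimulus of the megakaryocytic branch in this line.

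**Figure D1:**
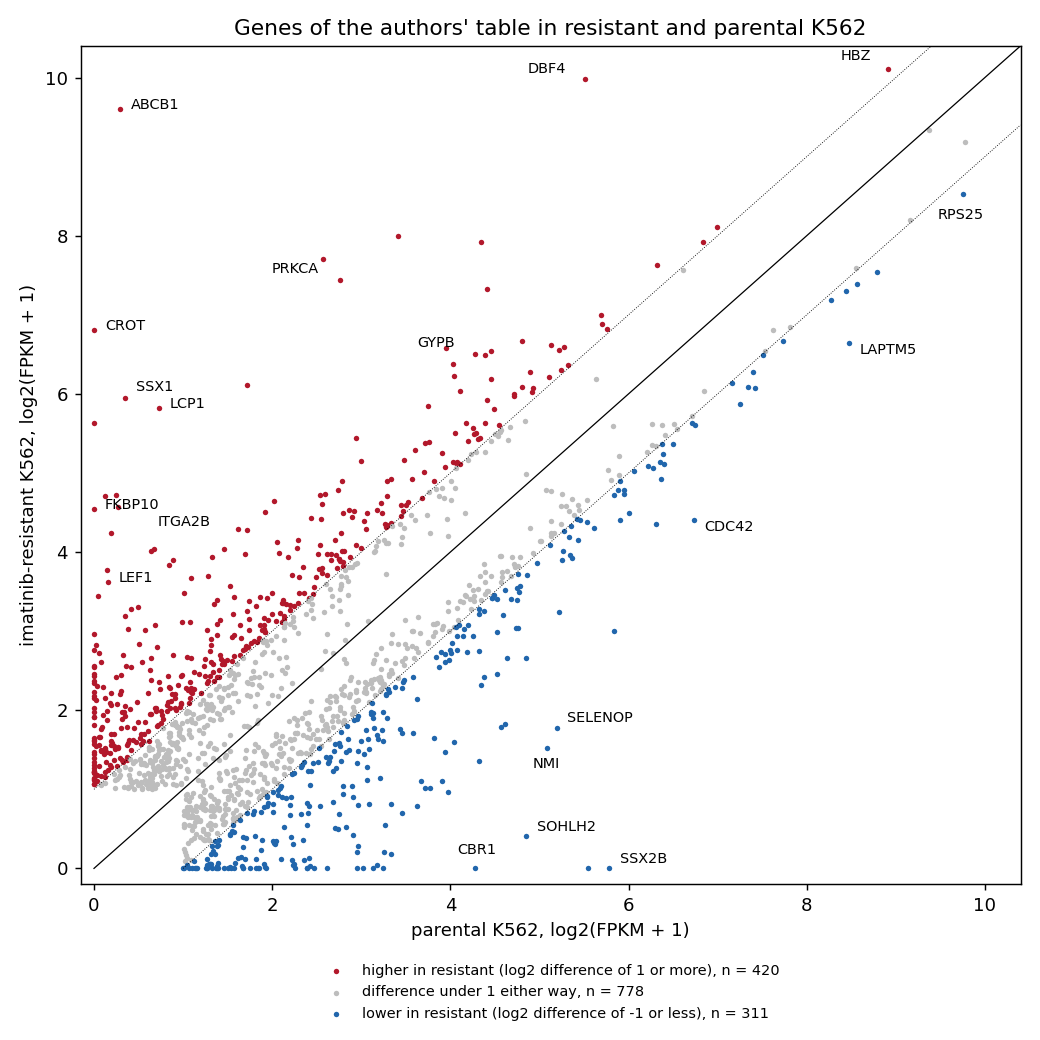
Each point is 1 of the 1509 genes, with log2(FPKM + 1) in parental cells on the horizontal axis and in resistant cells on the vertical axis; the solid line marks equal values and the dotted lines a log2 difference of 1. ABCB1, LCP1 and SSX1 stand far above the line near the left edge, SSX2B and CBR1 lie on the bottom edge, and the band along the line is thin because the table holds selected genes.

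ABCB1, PRKCA and LCP1 were set beforehand as marks of the resistant line in these data. That all 3 were high in it follows from that choice and supports nothing. ABCB1 had 778 FPKM in resistant and 677 FPKM in R-Exo cells, against 0.0985 FPKM in S-Exo and 0.222 FPKM in parental cells. PRKCA, which encodes protein kinase C alpha, had 172 FPKM in resistant and 118 FPKM in R-Exo cells, against 6.13 FPKM in S-Exo and 5.79 FPKM in parental cells, a log2 difference of 4.67 between resistant and parental. LCP1, which encodes L-plastin, a protein that bundles actin filaments in blood cells, had 55.5 FPKM in resistant and 56.0 FPKM in R-Exo cells, against 0.510 FPKM in S-Exo and 0.654 FPKM in parental cells, a log2 difference of 5.09. Both libraries of the first pair were above both of the second for each gene. ABCB1 lies on chromosome 7, LCP1 on 13 and PRKCA on 17.

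The promoters of LCP1 and PRKCA are shown because these were among the genes with the largest differences outside chromosome 7 and their start regions are built differently. That of CBR1 is shown as the gene with the largest negative difference among those with no near-identical copy and no overlapping model. CBR1, which encodes a carbonyl reductase that acts on quinones and on anthracycline drugs, was listed at 0 in resistant and R-Exo cells, against 18.4 FPKM in both S-Exo and parental cells. The windows run from 250 bases before to 50 bases after the RefSeq start on GRCh38.p14, 5′ to 3′ on the strand of the gene, with CG pairs in capitals. They are PRKCA at chr17:66302363-66302662 (plus strand), LCP1 at chr13:46182128-46182427 (minus strand) and CBR1 at chr21:36069774-36070073 (plus strand).
PRKCA: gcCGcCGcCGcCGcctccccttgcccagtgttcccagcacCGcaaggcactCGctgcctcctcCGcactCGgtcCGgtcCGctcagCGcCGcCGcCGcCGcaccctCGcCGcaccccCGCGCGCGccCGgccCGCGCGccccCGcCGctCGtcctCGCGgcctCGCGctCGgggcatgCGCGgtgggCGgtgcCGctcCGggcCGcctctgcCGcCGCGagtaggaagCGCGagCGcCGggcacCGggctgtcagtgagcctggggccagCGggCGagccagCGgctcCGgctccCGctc
LCP1: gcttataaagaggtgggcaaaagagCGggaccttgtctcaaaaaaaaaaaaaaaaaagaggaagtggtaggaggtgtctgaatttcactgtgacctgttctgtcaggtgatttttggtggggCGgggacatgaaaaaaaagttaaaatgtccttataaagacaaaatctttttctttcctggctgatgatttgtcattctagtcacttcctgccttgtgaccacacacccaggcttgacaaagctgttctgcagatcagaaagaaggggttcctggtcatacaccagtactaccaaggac
CBR1: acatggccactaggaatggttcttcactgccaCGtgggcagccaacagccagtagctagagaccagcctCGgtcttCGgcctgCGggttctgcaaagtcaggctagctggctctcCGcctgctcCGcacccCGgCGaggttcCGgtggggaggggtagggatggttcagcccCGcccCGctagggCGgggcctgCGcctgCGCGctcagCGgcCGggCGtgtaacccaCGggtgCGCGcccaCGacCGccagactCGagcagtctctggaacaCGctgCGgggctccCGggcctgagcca
PRKCA had 52 CG pairs and a GC content of 81.3% in its window, CBR1 27 pairs and 69.3%, and LCP1 2 pairs and 42.7%. No methylation was measured here. Of the 1509 genes, 1180 (78.2%) had a window in the table of promoters, below the 80% set for a comparison of sequence composition between higher and lower genes, so that comparison is void and is not given.

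Kinase and second-messenger lists had more higher than lower genes on the deposited scale, and most of them lost that lean when re-scaled. Of 10 compared genes of protein kinase C and phosphoinositide signalling, 4 were higher and 1 was lower, with a median difference of 0.91, against 27.8% higher, 20.6% lower and a median of 0.15 over all 1509. The higher ones beside PRKCA were PLCG2, a phospholipase that makes the activator of protein kinase C (3.61 FPKM in resistant, 0.874 FPKM in parental), INPP4B, a phosphatase of phosphoinositides (1.26 and 0.0227 FPKM), and SYNJ2, another such phosphatase (8.17 and 3.39 FPKM). The lower one was PRKCH, which encodes protein kinase C eta and was listed at 0 in resistant cells against 1.23 FPKM in parental. Re-scaled, 2 were higher and 2 lower, so the balance of this list depends on the scaling.

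Of 9 compared genes of heterotrimeric G proteins and cyclic nucleotide signalling, 5 were higher and 0 lower, and the median was 1.13. GNG12, a gamma subunit of G proteins, had 13.3 FPKM in resistant against 0.787 FPKM in parental cells. AKAP7, an anchor of protein kinase A, had 5.95 FPKM in resistant against 0.637 FPKM in parental, and ADCY6, an adenylyl cyclase that makes cyclic AMP, had 3.19 against 0.138 FPKM. PRKAR1A, the regulatory subunit that holds protein kinase A inactive until cyclic AMP binds, had 66.7 FPKM in resistant against 27.0 FPKM in parental. GRK3, a kinase that turns off G protein-coupled receptors, had 1.48 against 0.130 FPKM. With re-scaling 4 were higher and 1 lower. In R-Exo against S-Exo the same 9 genes gave 4 higher and 2 lower.

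Of 13 receptor and non-receptor tyrosine kinase genes, 5 were higher and 1 was lower, with a median of 0.99, while re-scaling gave 2 and 2. BMX, a cytoplasmic kinase of the TEC family, had 5.50 FPKM in resistant against 0.250 FPKM in parental cells. SYK, a kinase that relays signals from immune receptors, was listed at 0 in resistant and in R-Exo cells, against 4.33 FPKM in S-Exo and 5.12 FPKM in parental cells. Among 4 compared protein tyrosine phosphatases, 2 were higher and 0 lower, PTPRF (10.9 FPKM in resistant, 1.89 FPKM in parental) and PTPN21 (1.53 and 0.0962 FPKM). In the MAP kinase list, 4 of 11 were higher and 1 was lower, but re-scaling gave 1 and 1, and R-Exo against S-Exo gave 0 higher and 1 lower. MAP3K5, a stress-activated kinase also known as ASK1, had 3.61 FPKM in resistant against 0.840 FPKM in parental, and SPRY2, an inhibitor of receptor signalling to ERK, had 2.75 against 7.74 FPKM.

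Cytokine and growth factor ligands and their receptors gave no common direction, while G protein-coupled receptor genes leaned higher. Of 18 compared G protein-coupled receptor genes, 8 (44.4%) were higher and 3 (16.7%) lower, against 27.8% and 20.6% over all 1509. Their median was 0.89, and re-scaling gave 6 and 3. Of 17 cytokine, growth factor and chemokine genes, 4 were higher and 3 lower, and the median was -0.29. Re-scaling gave 4 and 4. FGF13, an intracellular member of the fibroblast growth factor family, had 18.3 FPKM in resistant against 2.28 FPKM in parental cells, and MDK, the growth factor midkine, had 198 against 78.6 FPKM. EREG, which encodes epiregulin, a ligand of the EGF receptor family, had 0.0321 FPKM in resistant against 8.06 FPKM in parental cells, and TNFSF13B, the B-cell survival factor BAFF, had 0.280 against 4.10 FPKM. IL15 and the receptor chain that presents it lay on opposite sides. IL15 had 3.05 FPKM in resistant and 3.33 FPKM in R-Exo, against 0.369 FPKM in S-Exo and 0.328 FPKM in parental cells, while IL15RA had 0.465 and 0.478 FPKM in resistant and R-Exo, against 7.73 FPKM in S-Exo and 8.59 FPKM in parental cells. Of 12 cytokine and growth factor receptor genes, 3 were higher and 4 lower, and re-scaling gave 3 and 5. The death receptor gene FAS (0.0179 FPKM in resistant, 1.61 FPKM in parental) and IL1R1 (0.287 and 1.64 FPKM) were lower, and LIFR, the receptor of leukaemia inhibitory factor, was higher (2.81 and 0.271 FPKM).

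**Figure D2:**
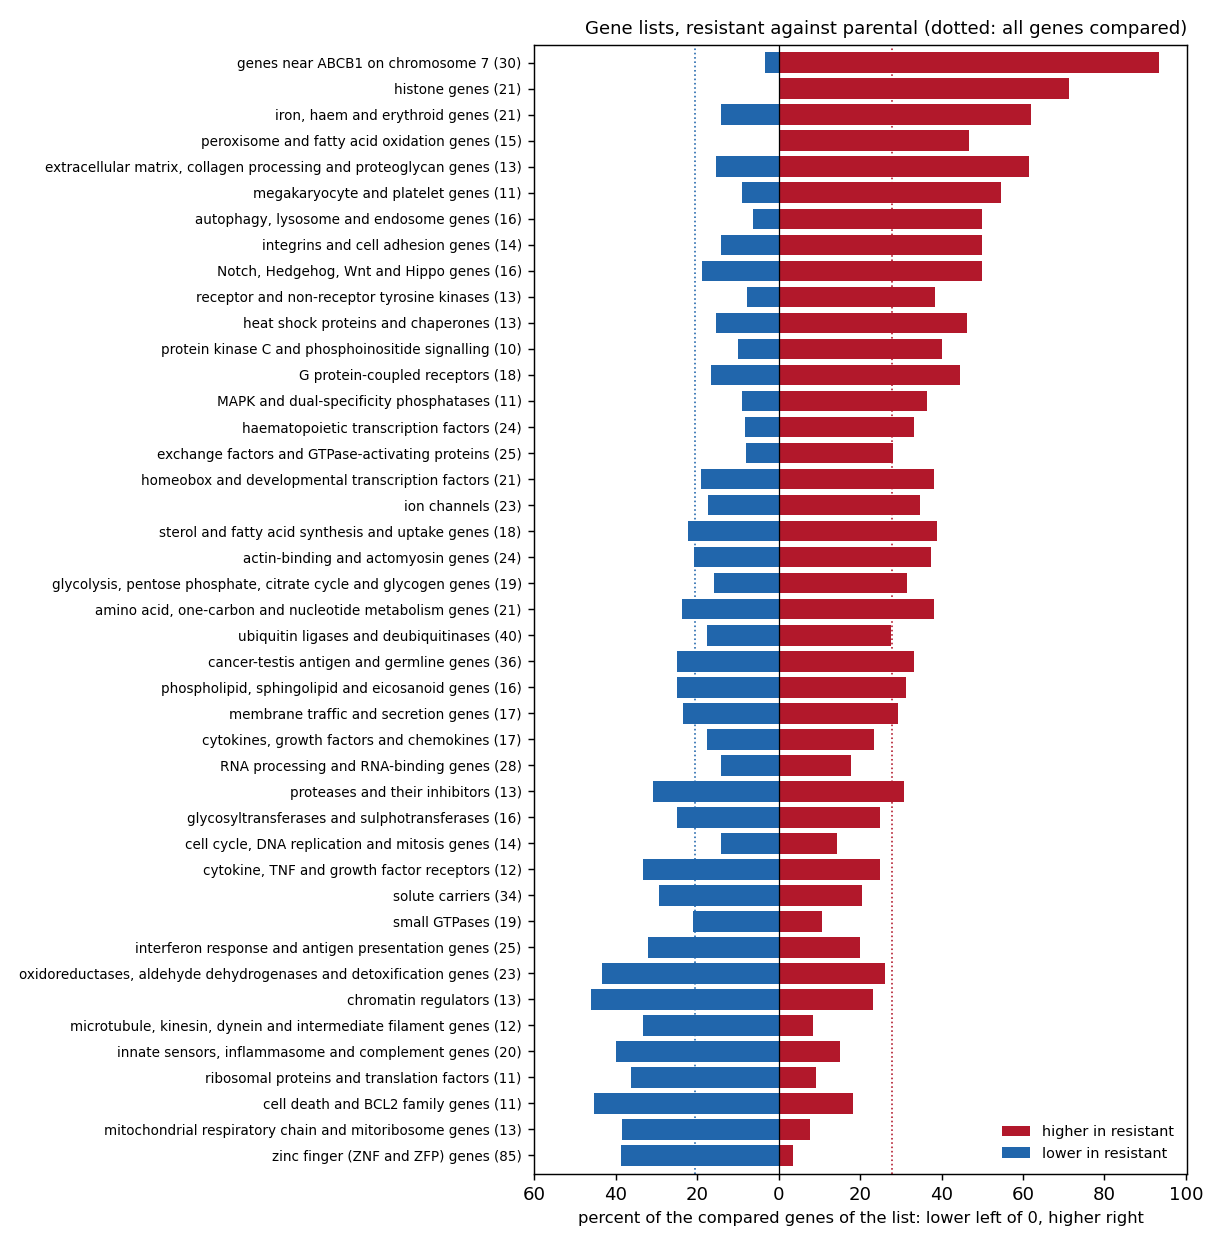
For each gene list with at least 10 compared genes (number in brackets), the bar to the right of 0 is the percent higher and the bar to the left the percent lower in resistant cells; dotted lines mark 27.8% higher and 20.6% lower over all 1509 genes. Histone, erythroid and peroxisome genes stand below the neighbours of ABCB1 at the top, and zinc finger genes, with 33 of 85 lower, stand at the bottom.

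Actin regulators other than LCP1 were found on both sides. Of 24 compared actin-binding and actomyosin genes, 9 were higher and 5 lower, and the median was 0.83. Re-scaling gave 7 and 5. SCIN, the calcium-dependent severing protein adseverin, which acts in megakaryocyte and platelet formation, had 14.8 FPKM in resistant against 2.25 FPKM in parental cells. Other higher members were MYO6, a motor that moves towards the minus end of actin (6.74 and 1.98 FPKM), FMNL2, a formin that elongates filaments (1.95 and 0.141 FPKM), and MARCKS, an actin-binding substrate of protein kinase C (1.38 and 0.118 FPKM). CAPG, which caps filament ends, had 4.01 FPKM in resistant against 19.3 FPKM in parental cells, and TPM1, a tropomyosin, had 5.09 against 14.3 FPKM. ACTA2, smooth-muscle actin, had 0.0365 against 3.73 FPKM, and its model shares exonic bases with another gene.

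The regulators of small GTPases, the switches that govern actin, also lay on both sides. Of 25 exchange factor and GTPase-activating genes, 7 were higher and 2 lower, though re-scaling gave 3 and 3. ARHGDIB, an inhibitor of small GTPases in blood cells, had 25.6 FPKM in resistant against 5.04 FPKM in parental cells. IQGAP2, a scaffold that binds CDC42 and RAC1, had 0.156 FPKM in resistant and 0.170 FPKM in R-Exo cells, against 8.40 FPKM in S-Exo and 8.56 FPKM in parental cells. Of the 19 small GTPase genes themselves, 2 were higher and 4 lower, and re-scaling gave 1 and 5. CDC42 had 20.2 FPKM in resistant and 47.0 FPKM in R-Exo, against 81.6 FPKM in S-Exo and 105 FPKM in parental cells, but 57.1% of its exonic bases are shared with another model, so its value is uncertain. DIRAS3, a RAS-like gene with growth-inhibiting activity, had 5.08 FPKM in resistant against 0.0572 FPKM in parental.

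Adhesion and matrix genes leaned higher. Of 14 integrin and adhesion genes, 7 were higher and 2 lower, and the median was 0.96. Re-scaling gave 5 and 4. ITGA2B, the alpha chain of the platelet fibrinogen receptor, had 18.5 FPKM in resistant against 2.06 FPKM in parental cells. CD44, the receptor of hyaluronan, had 7.80 against 1.66 FPKM, and ESAM, a junction protein of endothelium and platelets, had 3.22 against 0.198 FPKM. SELPLG, which encodes PSGL-1, the selectin ligand on leukocytes, had 1.21 FPKM in resistant against 8.27 FPKM in parental cells.

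Of 13 matrix and collagen-processing genes, 8 were higher and 2 lower, and the median was 1.15. Re-scaling left 7 and 3. Genes of the enzymes and chaperones that act on collagen inside the endoplasmic reticulum formed most of the higher members. FKBP10, a prolyl isomerase of that compartment, had 22.3 FPKM in resistant and 19.7 FPKM in R-Exo cells and was listed at 0 in S-Exo and parental cells. PLOD2, a collagen lysyl hydroxylase, had 3.67 FPKM in resistant against 0.140 FPKM in parental, P3H4 had 2.97 against 0.108 FPKM and P3H3 had 4.61 against 1.53 FPKM. P3H4 and FKBP10 stand side by side in the gene order of chromosome 17. SERPINH1, the collagen chaperone HSP47, had 73.4 FPKM in resistant against 33.5 FPKM in parental. The matrix components themselves were on both sides, SPARC (23.4 and 4.90 FPKM) and COL4A5 (2.70 and 0.245 FPKM) higher, and COL4A2 (0.626 and 2.28 FPKM) and the proteoglycan gene SDC2 (listed at 0 in resistant, 2.80 FPKM in parental) lower. In R-Exo against S-Exo this list gave 7 higher and 2 lower.

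Lineage genes of red cells and platelets were higher in greater proportion than the table as a whole. Of 21 compared iron, haem and erythroid genes, 13 were higher and 3 lower, and the median was 1.19. Re-scaling gave 11 and 5. HBZ, the embryonic zeta-globin gene, had 1101 FPKM in resistant and 1253 FPKM in R-Exo cells, against 533 FPKM in S-Exo and 480 FPKM in parental cells, with 27.2% of its exonic bases shared with another model. SLC4A1, the anion exchanger band 3 of the red-cell membrane, had 7.70 FPKM in resistant against 0.983 FPKM in parental, and EPB42, its partner protein 4.2, had 4.92 against 0.278 FPKM. The iron genes were split: TFR2, a sensor of transferrin (42.4 and 19.1 FPKM), STEAP1, a metalloreductase in the run around ABCB1 (3.72 and 0.233 FPKM), and GLRX5, needed for iron-sulphur clusters (117 and 51.0 FPKM), were higher, while SLC40A1, the iron exporter ferroportin, was lower (6.95 and 22.0 FPKM). PKLR, the red-cell pyruvate kinase, was lower as well, with 16.9 FPKM in resistant against 42.3 FPKM in parental. Of the 9 erythroid markers set for K562, 3 were in the table, HBZ and GYPB among them, and each was higher in resistant cells.

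Of 11 megakaryocyte and platelet genes, 6 were higher and 1 lower, and the median was 1.34, and the counts were the same when re-scaled. GP6, the platelet collagen receptor, had 20.3 FPKM in resistant against 4.85 FPKM in parental cells. F2RL2, the thrombin receptor PAR3, had 1.77 against 0.0843 FPKM, and CD226, an adhesion receptor of platelets and lymphocytes, had 1.78 against 0.0948 FPKM. CD9, a tetraspanin of platelets, was the lower member of this list, with 0.267 FPKM in resistant against 3.13 FPKM in parental. The list does not hold every platelet gene, and CD36, outside it, was lower with a log2 difference of -1.98.

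Markers of other blood cells were few in the table. Of 71 lymphoid genes listed, 6 were in it and 3 were compared, all higher: LEF1 (11.3 FPKM in resistant, 0.115 FPKM in parental), CD3D (8.85 and 0.410 FPKM) and CD22 (4.22 and 0.563 FPKM). Of 91 myeloid genes, 13 were in it and 4 were compared, with CD33, MS4A4A and MS4A3 higher and 0 lower. MS4A3, a gene of granulocyte precursors, had 66.5 FPKM in resistant against 29.4 FPKM in parental. The summed level of the compared genes was 24.4 FPKM in resistant and 1.09 FPKM in parental for the lymphoid list, and 79.3 and 31.8 FPKM for the myeloid list, of which MS4A3 made up most. Of 29 stromal and epithelial genes, 6 were in it and 2 were compared, with 0 higher and ACTA2 lower. The listed myeloid genes below the minimum level lay on both sides, and no direction is read from them. ITGAM, an integrin chain of mature myeloid cells, had 0.0145 FPKM in resistant against 0.0966 FPKM in parental cells. AZU1 had 0.218 against 0.849 FPKM, while FCGR2B had 0.844 against 0.111 FPKM and MS4A6A had 0.532 against 0.0892 FPKM. The part of other cell types in these values was not tested.

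GYPB and GYPE, both in the erythroid list, show how position and paralogy bear on such a group. GYPB encodes a red-cell surface sialoglycoprotein and lies beside its close relative GYPE on chromosome 4. GYPB had 89.9 FPKM in resistant against 18.4 FPKM in parental cells, and GYPE had 56.5 against 12.5 FPKM. The copies are near-identical, so that reads can be assigned to either and the values are not independent. The promoter windows of GYPB at chr4:144019296-144019595 and GYPE at chr4:143905510-143905809, both on the minus strand of GRCh38.p14, are shown for this likeness. Over 294 aligned bases 7 differed (97.6% identity). Capitals mark the differing bases and the ends outside the alignment, and the windows are offset by the place of the annotated start.
GYPB: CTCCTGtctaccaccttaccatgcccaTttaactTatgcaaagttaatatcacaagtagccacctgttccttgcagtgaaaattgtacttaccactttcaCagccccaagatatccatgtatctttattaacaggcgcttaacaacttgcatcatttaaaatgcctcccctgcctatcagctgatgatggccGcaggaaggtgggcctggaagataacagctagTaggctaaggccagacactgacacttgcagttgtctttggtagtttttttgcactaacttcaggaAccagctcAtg
GYPE: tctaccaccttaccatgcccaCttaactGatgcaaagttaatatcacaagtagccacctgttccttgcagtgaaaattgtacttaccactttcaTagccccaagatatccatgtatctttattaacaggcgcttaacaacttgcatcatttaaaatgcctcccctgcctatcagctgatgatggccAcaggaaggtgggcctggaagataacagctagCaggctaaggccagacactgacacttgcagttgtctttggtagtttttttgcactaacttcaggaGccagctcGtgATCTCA
Neighbours on the same arm were higher as well. The 6 compared genes in order from IL15 through INPP4B, USP38, GAB1 and GYPE to GYPB were all higher in resistant cells, and the same 6 were higher in R-Exo against S-Exo. USP38, a deubiquitinase, had 22.1 FPKM in resistant against 8.02 FPKM in parental cells and GAB1, an adaptor of receptor kinases, had 5.00 against 1.53 FPKM.

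Such runs of neighbours among the compared genes were found elsewhere. Compared genes were put in order along each chromosome. A run was counted where at least 4 compared genes in a row were past the limit on the same side. Genes absent from the comparison can lie between the members of a run. The runs spanned from 0.0926 Mb to 17.4 Mb. There were 28 runs, 18 of higher and 10 of lower genes, holding 116 (27.6%) of the 420 higher and 49 (15.8%) of the 311 lower genes. The runs around ABCB1 held 18 and 12 genes, from KIAA1324L to CYP51A1 and from KRIT1 to PON2, parted by AC000120.3, a lower gene all of whose exonic bases are shared. The genes in these runs have unrelated functions: DBF4, the activator of the replication kinase CDC7, had 1013 FPKM in resistant against 44.6 FPKM in parental cells, and VPS50, an endosomal tether, had 20.8 against 6.42 FPKM. All 30 were also past the limit in R-Exo against S-Exo.

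On chromosome 14, 28 of 46 compared genes were higher and 4 lower, and 40 of the 46 had a difference above 0. The stretch from ALKBH1 to DLK1 runs from base 77672404 to base 100738224. In it 18 of 19 compared genes in a row were higher and 0 lower, and the smallest difference was 0.90. These included DICER1, which cuts microRNA precursors (9.07 FPKM in resistant, 3.61 FPKM in parental), GLRX5, ITPK1, an inositol phosphate kinase (14.3 and 3.54 FPKM), ATG2B, a lipid transfer protein of autophagy (5.16 and 1.73 FPKM), and the interferon-inducible genes IFI27L1 (23.2 and 10.3 FPKM) and IFI27L2 (3.09 and 0.609 FPKM). In R-Exo against S-Exo 7 of the same 19 were higher and 0 lower, and over the whole chromosome 13 were higher and 4 lower, fewer than between resistant and parental.

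Chromosome 13 had the opposite lean, with 3 of 56 genes higher and 21 lower, and 53 of the 56 below 0. LCP1 was one of the 3 higher genes and stood among genes with negative differences, with SLC25A30, a mitochondrial carrier (2.93 FPKM in resistant, 8.44 FPKM in parental), just before it and ESD, esterase D (91.8 and 184 FPKM, just inside the limit), just after it. On chromosome 17, with 33 of 78 genes higher and 6 lower, PRKCA lay in a run of 5 higher genes with PRR29, ICAM2, SMURF2 and BPTF. BPTF, a subunit of a nucleosome remodelling complex, had 23.2 FPKM in resistant against 9.86 FPKM in parental cells, and ICAM2, a ligand of leukocyte integrins, had 64.2 against 29.3 FPKM. Chromosomes 6 (34 of 75 higher, 11 lower), 15 (18 of 41 higher, 6 lower) and 4 (31 of 75 higher, 12 lower) leaned higher. The higher genes of chromosome 6 include histone genes. Chromosomes 10 (5 of 47 higher, 13 lower) and 3 (11 of 94 higher, 24 lower) leaned lower. In R-Exo against S-Exo chromosome 6 gave 18 higher and 12 lower, chromosome 15 gave 12 and 5, and chromosome 4 gave 27 and 17. Chromosome 10 gave 3 and 17, and chromosome 3 gave 10 and 23. DNA copy number was not measured here, and its part in these runs was not tested.

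**Figure D3:**
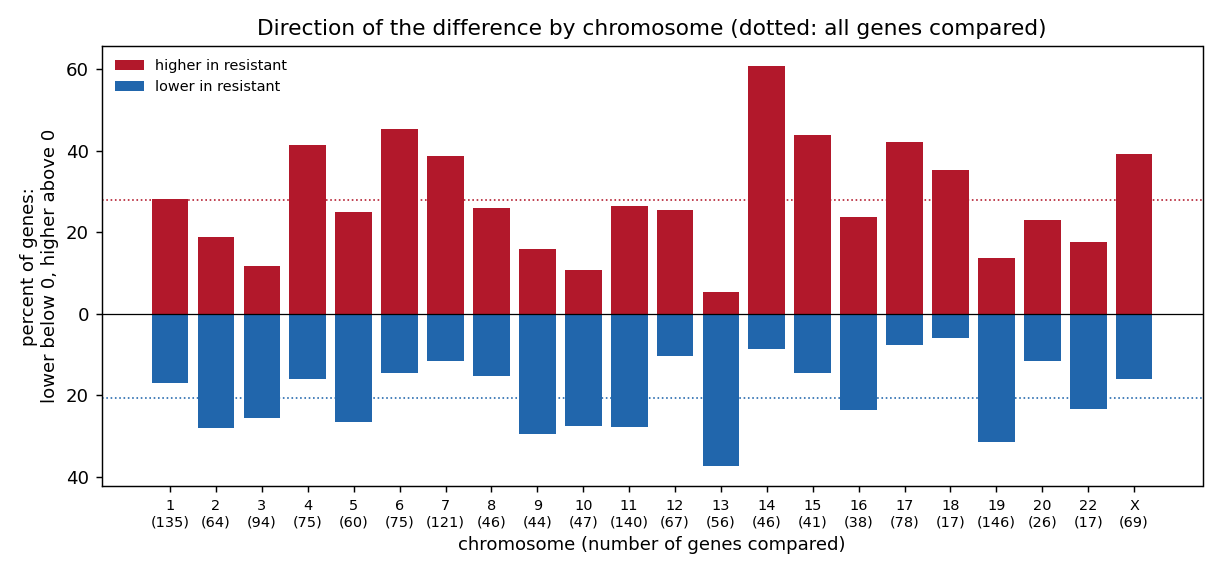
Bars above 0 are the percent of the compared genes of a chromosome that were higher in resistant cells and bars below 0 the percent lower, with the number of genes in brackets; chromosomes with under 10 genes are left out. Chromosome 14 has 60.9% higher and chromosome 13 has 5.36% higher and 37.5% lower, around dotted lines at 27.8% and 20.6% for all genes.

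**Figure D4:**
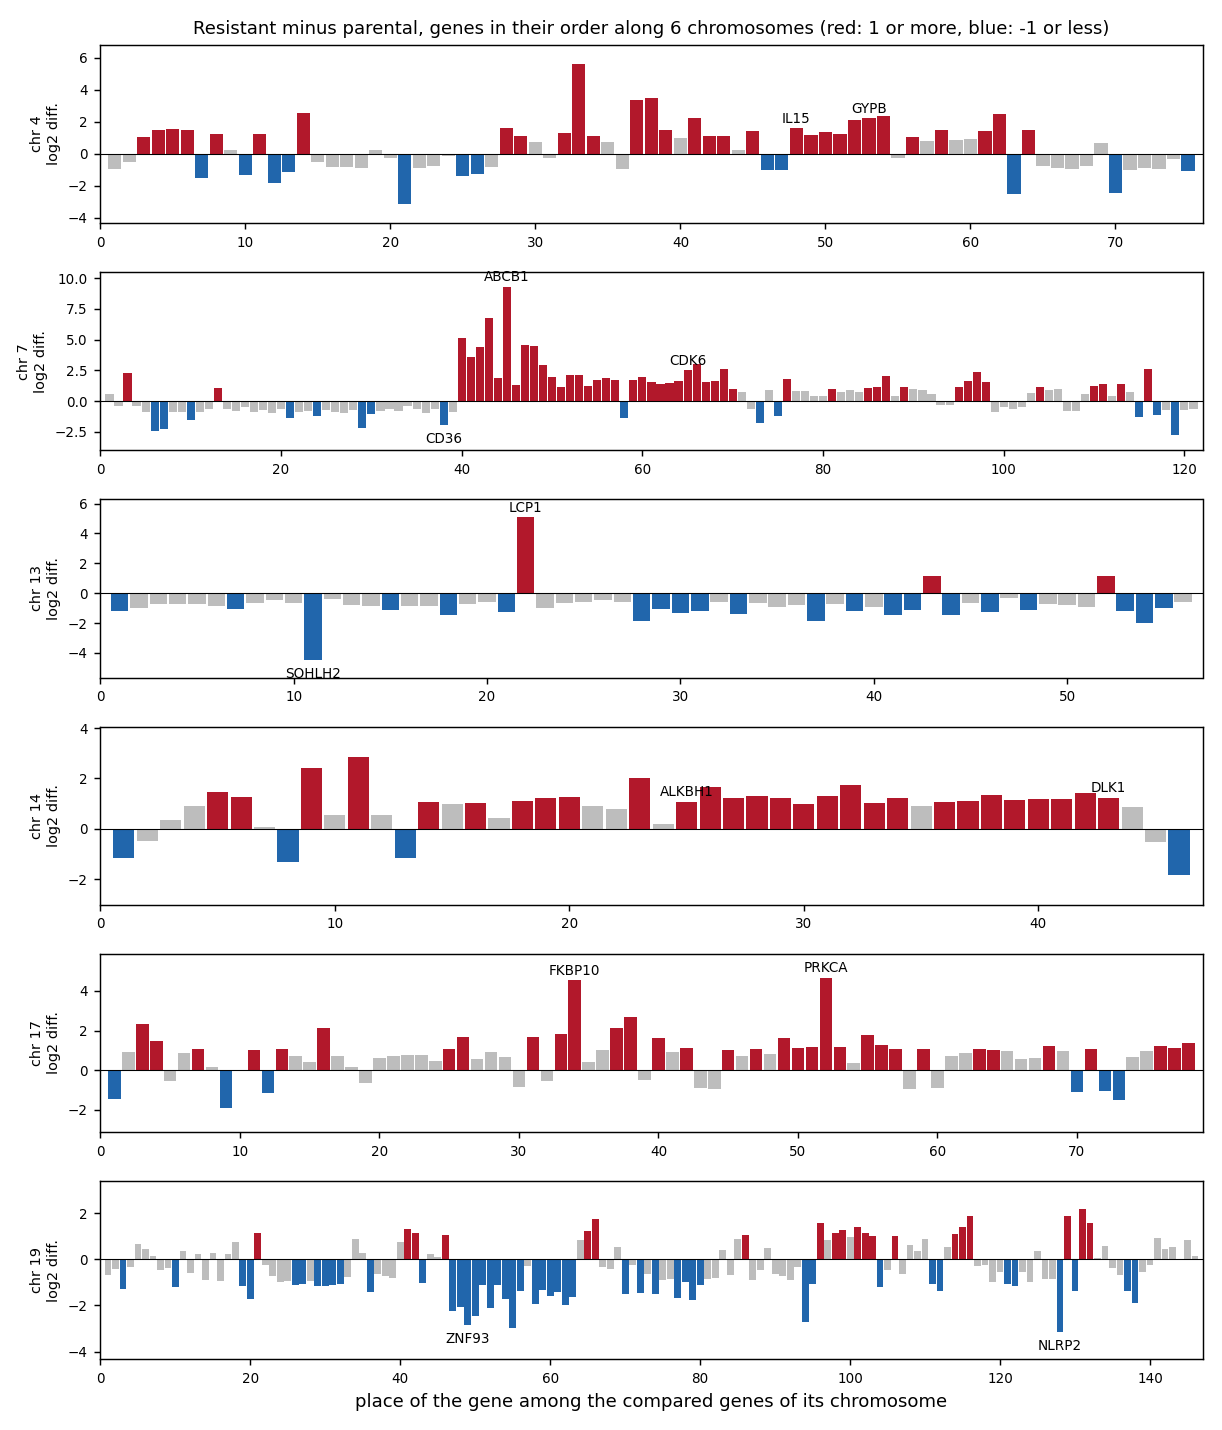
The log2 difference, resistant minus parental, is drawn for each compared gene in its order along chromosomes 4, 7, 13, 14, 17 and 19, in red at 1 or more and blue at -1 or less. The genes around ABCB1 and from ALKBH1 to DLK1 stand above 0 in a row, LCP1 stands above 0 among negative neighbours on chromosome 13, and ZNF93 lies in a block below 0 on chromosome 19.

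Of 24 transcription factor genes of blood formation, 8 (33.3%) were higher, near the 27.8% over all 1509 genes. Lower were 2 (8.33%), against 20.6% over all. The median was 0.75, and re-scaling gave 7 and 3. LEF1, which carries Wnt signals in lymphoid and progenitor cells, had a log2 difference of 3.46. ETS1, a founding member of the ETS family, had 5.76 FPKM in resistant and 6.17 FPKM in R-Exo cells, against 0.0393 FPKM in S-Exo cells and a parental value listed at 0. FOS, an immediate early gene, had 9.19 FPKM in resistant against 1.54 FPKM in parental, and NFATC1, a calcium-dependent factor, had 7.43 against 2.11 FPKM. The retinoic acid receptors lay on opposite sides, RARB with 1.92 FPKM in resistant against 0.0134 FPKM in parental and RARG with 0.769 against 4.23 FPKM. Among 21 homeobox and developmental factors, 8 were higher and 4 lower, and re-scaling gave 6 and 5. HES7, a target of Notch, had 4.43 against 0.234 FPKM, and TBX1, a T-box factor, was listed at 0 in resistant cells against 7.08 FPKM in parental.

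Of 16 genes of the Notch, Hedgehog, Wnt and Hippo pathways, 8 were higher and 3 lower, and the median was 0.95. Re-scaling gave 5 and 5. The higher ones held TCF7L2, a partner of beta-catenin like LEF1 (2.88 FPKM in resistant, 0.542 FPKM in parental), TLE4, a co-repressor of those factors (2.58 and 0.679 FPKM), and NOTUM, which inactivates Wnt ligands (3.01 and 0.887 FPKM). FZD1, a Wnt receptor in the runs around ABCB1, was also higher (3.47 and 0.879 FPKM). So was DLK1 in the chromosome 14 stretch, with 1.34 FPKM in resistant and a parental value listed at 0. The lower ones were FZD4, another Wnt receptor (1.86 and 7.47 FPKM), TEAD1, the factor at the end of the Hippo pathway (0.267 and 3.03 FPKM), and TLE2 (0.873 and 3.62 FPKM). TEAD1 had 0.760 FPKM in S-Exo cells, far from the parental value.

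Zinc finger genes were the list with the largest count of lower members. Of 85 compared genes of the ZNF and ZFP families, most of which encode DNA-binding repressors, 3 were higher and 33 lower, and the median was -0.84. Re-scaling gave 2 and 41. ZNF93, which in human cells binds LINE-1 elements, had 0.730 FPKM in resistant and 0.742 FPKM in R-Exo, against 12.2 FPKM in S-Exo and 11.3 FPKM in parental cells. ZNF91, which binds SVA elements, had 0.876 FPKM in resistant against 6.51 FPKM in parental cells. Both lie on chromosome 19, in runs of 10 and 6 lower genes, and the 10 began with CILP2, which is no zinc finger gene. These genes have close paralogs that can share reads. Of the 146 genes of that chromosome, 20 were higher and 46 lower.

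Chromatin genes outside the histones were lower more often than higher, 6 against 3 of 13, and re-scaling gave 7 lower and 2 higher. HDAC9, a histone deacetylase, had 0.761 FPKM in resistant against 7.52 FPKM in parental cells, and HMGN5, a nucleosome-binding protein, had 9.51 against 25.9 FPKM. PRDM9, a histone methyltransferase normally used in meiosis, was higher, with 21.8 FPKM in resistant against 2.79 FPKM in parental. Among histone genes, 15 of 21 were higher and 0 lower, with differences from 0.54 to 1.57 and a median of 1.10, and re-scaling left 9 higher and 0 lower. HIST1H2AG had 47.8 FPKM in resistant against 22.4 FPKM in parental cells and HIST3H2A had 44.3 against 15.6 FPKM. In R-Exo against S-Exo 8 of the 21 were higher and 0 lower. Most histone transcripts carry no poly-A tail and these libraries were made from poly-A RNA. The part of that selection step in these values was not tested.

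Metabolic genes differed by branch. Of 15 peroxisome and fatty acid oxidation genes, 7 were higher and 0 lower, and the median was 0.92. CROT, the peroxisomal carnitine acyltransferase, lies in the runs around ABCB1. Others lie elsewhere, among them EHHADH, an enzyme of peroxisomal oxidation (1.30 FPKM in resistant, listed at 0 in parental) and ACSM3, a medium-chain acyl-CoA synthetase (127 and 50.8 FPKM). Re-scaling gave 6 and 2. In lipid remodelling, LPCAT2, which makes phosphatidylcholine and platelet-activating factor, had 6.08 FPKM in resistant against 0.0140 FPKM in parental cells, and PTGS1, the cyclo-oxygenase of platelets, had 4.37 against 0.186 FPKM. HPGD, which breaks down prostaglandins, had 1.79 FPKM in resistant against 14.4 FPKM in parental, and ENPP3 had 0.629 against 9.99 FPKM. For lipid uptake, CD36 (8.45 and 36.2 FPKM), a fatty acid receptor, and SLC27A2, a fatty acid transporter (1.56 and 19.1 FPKM), were lower.

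Oxidoreductase and detoxification genes leaned lower, with 6 of 23 higher and 10 lower and a median of -0.92, and re-scaling gave 4 and 12. In R-Exo against S-Exo 4 were higher and 13 lower. Beside CBR1, the lower ones held ALDH1A1, which makes retinoic acid (2.45 FPKM in resistant, 22.8 FPKM in parental), the aldo-keto reductases AKR1C1 (7.25 and 26.1 FPKM) and AKR1C2 (5.21 and 14.8 FPKM), and HSD3B7, an enzyme of bile acid synthesis (1.03 and 12.7 FPKM). The metallothioneins, small proteins that bind zinc and copper, were lower in both members compared, MT2A with 2.53 FPKM in resistant against 23.4 FPKM in parental and MT1X listed at 0 against 4.26 FPKM. AKR1C and MT genes have near-identical relatives that can share reads. EPHX2, an epoxide hydrolase (21.6 and 5.93 FPKM), CYP3A5, a cytochrome P450 of drug oxidation (5.49 and 0.852 FPKM), and MGST1, a microsomal glutathione transferase (77.8 and 36.9 FPKM), were higher.

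In carbon and nitrogen metabolism, 8 of 21 amino acid, one-carbon and nucleotide genes were higher and 5 lower, and re-scaling gave 7 and 6. TDO2, which opens the ring of tryptophan, had 10.2 FPKM in resistant against 1.01 FPKM in parental cells, and CPS1, the entry enzyme of the urea cycle, had 3.17 against 0.268 FPKM. ASS1, which makes argininosuccinate in the same cycle, was listed at 0 in resistant cells against 3.77 FPKM in parental. Among carbohydrate genes, TKTL1, a transketolase-like gene, had 5.62 FPKM in resistant against 0.0430 FPKM in parental, and KHK, the fructose kinase, had 1.81 against 6.77 FPKM. DLAT, a subunit of pyruvate dehydrogenase, had 40.2 against 81.9 FPKM. The carbonic anhydrase genes CA8 and CA1 were higher, CA8 with 22.8 FPKM in resistant against 0.201 FPKM in parental cells and CA1 with 101 against 27.0 FPKM.

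Mitochondrial and ribosomal genes were few and leaned lower. Of 13 respiratory chain, import and mitoribosome genes, 5 were lower and 1 was counted higher, with a median of -0.92. MRPS22 had 67.2 FPKM in resistant against 161 FPKM in parental cells and TOMM7, of the outer membrane import pore, had 20.1 against 58.8 FPKM. The 1 higher row carries the symbol NDUFV1 on an identifier to which GENCODE gives another gene, and no direction is read from it. It remains counted among the 420 higher genes and in a run of 4 on chromosome 12, which would fall below the minimum length without it. Re-scaled, the list gave 1 higher and 7 lower. Of 11 ribosomal protein and translation factor genes, 4 were lower and 1 was higher, and re-scaling gave 6 lower and 1 higher. RPL37 had 21.5 FPKM in resistant, 42.0 FPKM in R-Exo, 70.6 FPKM in S-Exo and 63.4 FPKM in parental cells. RPS25, TRAPPC4, SLC37A4 and DPAGT1 formed a run of 4 lower genes on chromosome 11, and DIXDC1, DLAT, PIH1D2 and TIMM8B another on the same chromosome.

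Genes of immunity leaned lower. Of 25 interferon response and antigen presentation genes, 5 were higher and 8 lower, and the median was -0.60. Re-scaling gave 4 and 11. NMI, a partner of STAT factors, had 1.86 FPKM in resistant and 1.33 FPKM in R-Exo, against 31.9 FPKM in S-Exo and 32.9 FPKM in parental cells. UBE2L6, the enzyme that conjugates ISG15, had 1.15 FPKM in resistant against 11.8 FPKM in parental, and IFITM3, which restricts virus entry, had 40.4 against 89.7 FPKM. Of the 5 higher members, IFI27L1 and IFI27L2 lie in the chromosome 14 stretch, and TRIM5, a restriction factor, had 12.7 FPKM in resistant against 4.76 FPKM in parental.

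Of 20 genes of innate sensing, inflammasomes and complement, 3 were higher and 8 lower, and the median was -0.82. Re-scaling gave 1 and 9. S100A6 (4.50 FPKM in resistant, 22.0 FPKM in parental), S100A16 (4.34 and 19.9 FPKM) and S100A4 (4.34 and 10.9 FPKM), calcium-binding proteins encoded on chromosome 1, were lower, whereas S100P, on chromosome 4, was higher (8.55 and 2.30 FPKM). CARD16 (0.619 and 4.30 FPKM) and CARD8 (6.66 and 16.6 FPKM), which act on inflammatory caspases, and CASP4 (1.98 and 5.54 FPKM), which encodes one, were lower. CASP4 and CARD16 stand side by side in the gene order of chromosome 11, near BIRC3 (below), among genes with negative differences. In the cell death list, 2 of 11 were higher and 5 lower, and its median was 0.70, on the other side from that balance. Re-scaling gave 1 and 5. MLKL, the executor of necroptosis, had 0.0911 FPKM in resistant against 2.05 FPKM in parental cells, BIRC3, an inhibitor of apoptosis, had 0.0287 against 1.40 FPKM, and BAD, a BCL2 family member that promotes death, had 4.14 against 10.0 FPKM, with 23.7% of its exonic bases shared with another model. BTG2, an anti-proliferative gene, was higher (64.9 and 16.3 FPKM).

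Autophagy, lysosome and endosome genes leaned higher, with 8 of 16 higher and 1 lower, a median of 0.96 and counts of 7 and 1 when re-scaled. WIPI1, which binds early autophagic membranes, had 15.6 FPKM in resistant against 3.84 FPKM in parental cells, with 24.3% of its exonic bases shared. TMEM192, a lysosomal membrane protein (9.70 and 2.83 FPKM), and SNX9, a sorting nexin of endocytosis (44.3 and 18.5 FPKM), were higher, and VPS50, RUNDC3B and ATG2B, also higher, lie in the chromosome 7 and 14 runs. LAPTM5, a lysosomal protein of blood cells, was the lower member and one of the most abundant, with 98.7 FPKM in resistant and 95.4 FPKM in R-Exo, against 355 FPKM in S-Exo and 354 FPKM in parental cells.

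Of 34 solute carriers, 7 were higher and 10 lower. Re-scaling gave 4 and 15, quantile normalization gave 4 and 12, and R-Exo against S-Exo gave 5 and 10. SLC39A8, a zinc importer, had 42.1 FPKM in resistant against 18.8 FPKM in parental cells, and SLC6A8, the creatine transporter, had 19.9 against 45.3 FPKM. The list of ABC transporters and P-type ATPases, which also holds ATP6V0E2 of another pump family, had 9 compared genes. Of these, 4 were higher and 4 lower, and re-scaling gave 3 and 4. ABCB1 and ABCB4, among the higher ones, lie in the same run on chromosome 7. ATP7B, a copper pump, was lower (2.73 and 8.74 FPKM), as was ATP6V0E2, a subunit of the proton pump (1.15 and 13.9 FPKM).

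Genes of the germline were on both sides. Of 36 cancer-testis antigen and germline genes, 12 were higher and 9 lower, and re-scaling turned this to 9 and 10. The SSX family was split: SSX1 had 60.5 FPKM in resistant and 70.7 FPKM in R-Exo cells, against 0.232 FPKM in S-Exo and 0.276 FPKM in parental cells, while SSX2 and its copy SSX2B were listed at 0 in resistant and R-Exo cells, against 44.8 and 44.0 FPKM in S-Exo and 45.7 and 54.1 FPKM in parental cells. The RefSeq promoter windows of SSX2 and SSX2B are identical over 300 bases. MAGEB1, MAGEB2 and MAGEB16 were higher and lay in a run of 4 genes on chromosome X, with MAGEB2 at 97.1 FPKM in resistant against 34.0 FPKM in parental.

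Among genes in none of the lists, 156 of 652 were higher and 125 lower. PAPSS1, which makes the sulphate donor of all sulphation, had 15.2 FPKM in resistant against 0.560 FPKM in parental, and FERMT2, the integrin activator kindlin-2, had 8.71 against 0.337 FPKM. NTS, the peptide neurotensin, had 19.5 FPKM in resistant against 78.4 FPKM in parental, and CALB1, a calcium buffer, had 7.01 against 56.3 FPKM. MATR3, a nuclear matrix protein, stands on 2 overlapping identifiers with opposite differences: one differed by 2.08 and the other by -1.38 on the log2 scale, with 42.5% and 82.5% of their exonic bases shared. No direction is read from it.

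**Figure D5:**
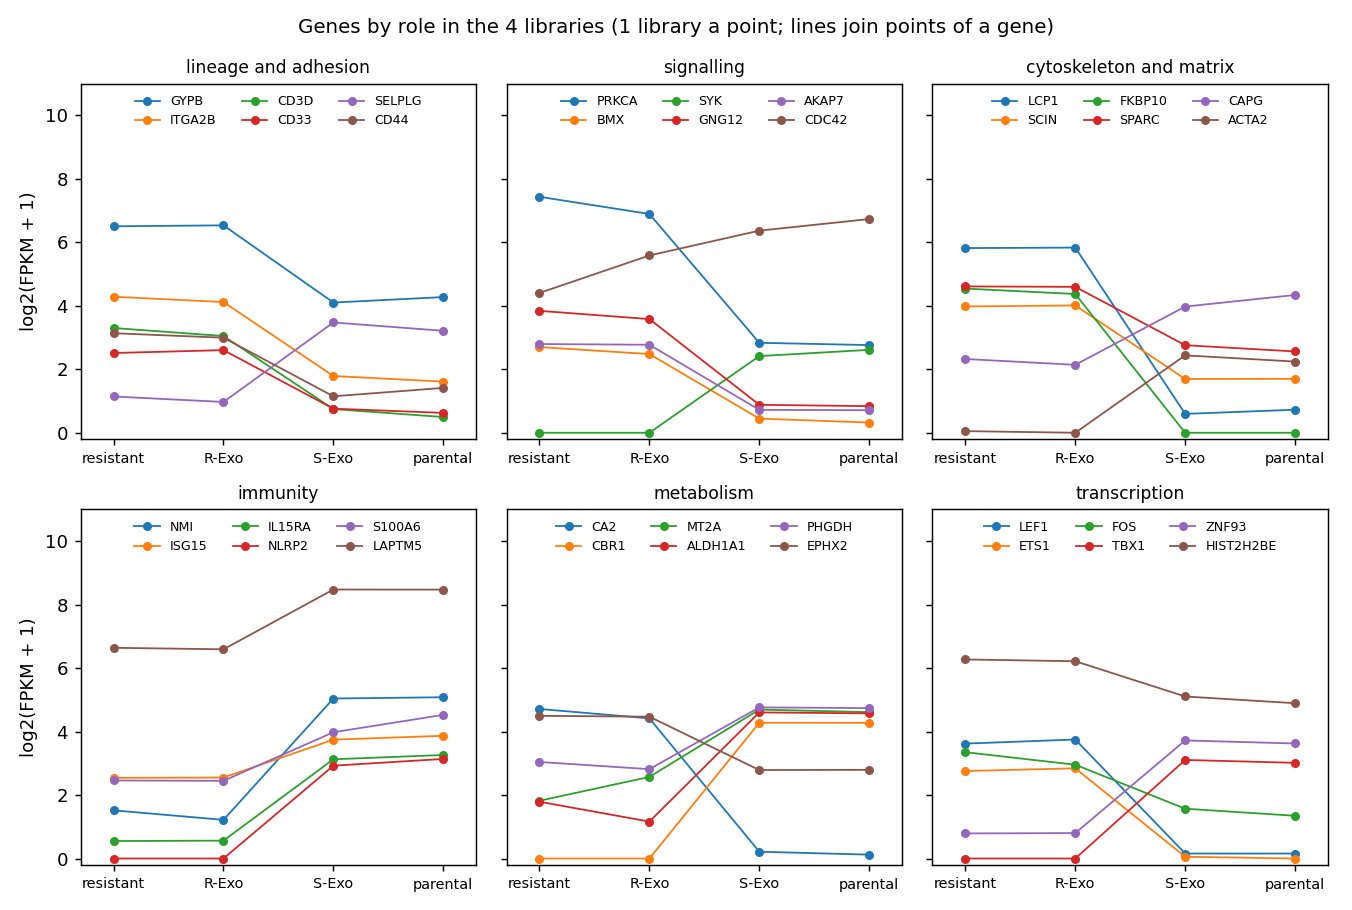
The vertical axis is log2(FPKM + 1) and the horizontal axis the 4 libraries, resistant, R-Exo, S-Exo and parental, with 6 genes in each of 6 panels by role; each point is 1 library and lines only join the points of a gene. For the genes drawn, the resistant and R-Exo points lie together and apart from the S-Exo and parental points, with CDC42 the least so.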

How the data were processed

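RNA of 4 K562 libraries, 1 per group, was sequenced after poly-T selection with a NEBNext Ultra kit, per the labels' protocols. FPKM values, deposited in 1 table for all libraries, cover genes that the table's name calls differentially expressed. How the genes were selected, the build and the counter are not stated in the labels. The submitters' processing notes name SAMtools 0.1.18, TopHat2, GATK and Picard, without their roles. Depth per library is unknown. All sample columns were used.

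Differences were taken as log2((FPKM + 1)/(FPKM + 1)) with Python 3.11.15, pandas 2.3.3 and numpy 2.4.6, and the code was tested on simulated data. No test was run, since each group had 1 library. All 1509 compared identifiers were found in GENCODE 29, 1506 under the same symbol, and positions, gene order and shared exonic bases (flagged from 10%, 256 genes) come from it. Promoters are RefSeq windows, and pairs were aligned with Biopython 1.88. The 51 gene lists, which overlap, the members, the markers ABCB1, PRKCA and LCP1, and the run rule were chosen with earlier results of these data known. They support nothing by themselves. Genes named are drawn from the 40 highest and 40 lowest with at least 5 FPKM, the 6 highest and 6 lowest past the limit of each list, and ABCB1, PRKCA and LCP1, with further list members and examples from runs, chromosomes and paralogs chosen after their values were seen. The settings varied were the minimum (none, or 5 FPKM), the pseudocount (0.1), the scaling (median at 0, or quantile normalization), leaving out the listed neighbours of ABCB1 and S-Exo in place of parental; leaving out overlapping genes was added after seeing the data.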

Additional observations from a re-analysis of the deposited data

Results flagged for a closer look

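Signal was found in data outside the comparison of resistant with parental cells. Among the rows that carry a running number in place of a gene name, 642 passed the minimum level, of which 182 were higher and 79 lower in resistant cells, with a median difference of 0.58. ABCB1 had 677 FPKM in the R-Exo library, labelled as K562 cells, against 0.0985 FPKM in the S-Exo library. The source of both signals was not tested.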

How the results depend on the processing

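The counts of 420 higher and 311 lower genes stayed within 1.5 times under a pseudocount of 0.1, re-scaling, quantile normalization, leaving out the neighbours of ABCB1, and S-Exo in place of parental. Dropping the filter could not change them, since a gene under 1 FPKM in both libraries cannot reach the limit. The counts were 246 and 189 with at least 5 FPKM, which by construction compares fewer genes. The median of 0.15 moved to -0.49 with at least 5 FPKM, 0 when re-scaled, -0.079 after quantile normalization, 0.0056 against S-Exo and 0.36 without overlapping genes; the cause was not tested. Of 47 lists with 5 or more compared genes, 30 had more higher and 12 more lower genes, against 16 and 23 when re-scaled and 25 and 21 after quantile normalization. So the lean over all lists reversed when re-scaled: 6 lists turned outright and others became ties. Outright turns numbered 4 after quantile normalization and 2 against S-Exo. Of the 374 genes in the naming pool, 250 to 374 could be compared under a given setting, and 0 of those compared changed sign. Only quantile normalization and S-Exo in place of parental could turn the sign of a gene past the limit. The other settings are therefore no check of the sign. Of the genes compared, 43 fell inside the limit when re-scaled, 23 after quantile normalization and 48 against S-Exo. The planned change of limit for promoter shares is not given, since that comparison is void. No paired analysis was possible because each group has 1 library. With 1 library a group and no counts, neither sampling noise nor the spread between cultures can be put on any value.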
